A study of Mus musculus with 24 samples.

Results

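The genes described here drive cell division, and 38 were chosen by their symbols in a table of 56748 gene identifiers from mouse kidney. Of these, 23 act in mitosis and are called the mitotic genes, and 15 act in copying DNA beforehand and are called the replication genes. All 38 were found and had a mean of at least 10 normalized counts over the libraries, so none was lost to the filter on low values, which left 17333 genes in all. The rule was gene function with this filter on the mean count and no threshold on a difference between groups, though it was written with earlier results of these data known.

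The study sequenced poly A selected RNA of kidneys from mice of both sexes, taken at the midpoint of the active or of the inactive part of the day. There were 24 libraries, 6 each of active males, inactive males, active females and inactive females. The sources used here do not give the strain, age, genotype or clock hour, and the labels name no treatment other than the period. The labels do not say that each library came from a separate animal, so p-values measure the spread between these libraries, which may be in part technical.

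A cell that divides first copies its DNA and then separates the copies in mitosis. Replication genes encode the helicase that opens the DNA, the factors that load it and the enzymes that make nucleotides, and they are switched on by E2F transcription factors. Mitotic genes encode the cyclins and kinases that start mitosis, the motors and kinetochore proteins of the spindle and the ubiquitin machinery that ends it, and they are held down in resting cells by the DREAM complex and switched on by the MuvB complex with B-Myb and FoxM1. In the adult kidney few cells divide at any time, and tubule cells enter the cycle after injury.

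The promoters of both sets are shown because the 2 classes are known to be controlled through different short motifs, the CHR element and the CCAAT box in mitotic genes and the E2F site in replication genes. RefSeq promoter windows of the build GRCm38.p6, 250 bases before to 50 bases after the start, were held for 32 of the 38 members. The windows below belong to 4 mitotic genes that were lower in active males than in inactive males and to 2 replication genes. Of these 2, Mcm6 was higher in active males. Cdt1 was lower in active females than in inactive females, and in males it had the same direction but just missed the threshold. Each reads 5′ to 3′ on the strand of the gene, and capitals mark the CHR element (TTTGAA or TTCGAA), the CCAAT box (CCAAT) and the E2F site (TTTCCCGC, TTTCGCGC, TTTGCCGC or TTTGGCGC), each searched on both strands, with overlapping matches joined.
Mki67 promoter, chr7:135716330-135716629, reverse strand: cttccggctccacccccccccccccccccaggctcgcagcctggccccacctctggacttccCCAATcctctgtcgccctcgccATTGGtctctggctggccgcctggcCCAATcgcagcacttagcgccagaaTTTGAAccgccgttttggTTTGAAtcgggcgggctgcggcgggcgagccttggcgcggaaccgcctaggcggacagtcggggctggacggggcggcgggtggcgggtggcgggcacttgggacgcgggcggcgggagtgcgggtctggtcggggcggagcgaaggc
Cdc20 promoter, chr4:118437294-118437593, reverse strand: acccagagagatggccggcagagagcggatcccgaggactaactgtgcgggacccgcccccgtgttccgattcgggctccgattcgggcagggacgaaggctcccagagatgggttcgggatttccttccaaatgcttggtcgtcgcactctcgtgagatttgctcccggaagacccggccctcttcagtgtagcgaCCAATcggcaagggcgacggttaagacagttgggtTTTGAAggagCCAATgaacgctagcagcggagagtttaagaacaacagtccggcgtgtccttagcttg
Kif11 promoter, chr19:37376132-37376431, forward strand: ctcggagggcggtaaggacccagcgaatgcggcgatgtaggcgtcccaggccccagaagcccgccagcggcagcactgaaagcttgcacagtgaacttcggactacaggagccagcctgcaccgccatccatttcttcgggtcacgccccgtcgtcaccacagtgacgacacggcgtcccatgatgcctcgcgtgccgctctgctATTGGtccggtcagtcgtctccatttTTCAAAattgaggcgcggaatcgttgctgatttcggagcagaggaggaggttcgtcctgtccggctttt
Ccnb1 promoter, chr13:100786437-100786736, reverse strand: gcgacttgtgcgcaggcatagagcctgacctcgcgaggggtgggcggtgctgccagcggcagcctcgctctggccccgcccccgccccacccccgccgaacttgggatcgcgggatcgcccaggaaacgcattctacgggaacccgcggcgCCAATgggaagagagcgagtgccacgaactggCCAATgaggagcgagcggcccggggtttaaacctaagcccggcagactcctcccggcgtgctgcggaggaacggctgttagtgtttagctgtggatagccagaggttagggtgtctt
Mcm6 promoter, chr1:128359656-128359955, reverse strand: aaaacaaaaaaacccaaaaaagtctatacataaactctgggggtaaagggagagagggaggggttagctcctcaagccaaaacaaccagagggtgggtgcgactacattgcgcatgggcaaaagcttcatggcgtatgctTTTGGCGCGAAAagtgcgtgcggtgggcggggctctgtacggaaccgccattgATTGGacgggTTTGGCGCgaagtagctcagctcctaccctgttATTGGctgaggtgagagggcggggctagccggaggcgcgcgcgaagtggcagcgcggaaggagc
Cdt1 promoter, chr8:122567765-122568064, forward strand: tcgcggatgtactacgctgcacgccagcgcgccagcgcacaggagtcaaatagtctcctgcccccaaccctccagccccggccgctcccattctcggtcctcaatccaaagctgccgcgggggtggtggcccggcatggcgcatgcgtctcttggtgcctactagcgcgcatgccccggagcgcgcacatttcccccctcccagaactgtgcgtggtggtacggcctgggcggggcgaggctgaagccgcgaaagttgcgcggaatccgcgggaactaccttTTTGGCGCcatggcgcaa

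A CHR element was in the window of 15 of 19 mitotic genes (78.9%) and of 2 of 13 replication genes (15.4%), against 16.9% of the 12096 tested genes with a window. An E2F site was in 1 of 19 mitotic windows by gene (5.26%) and in 6 of 13 replication genes (46.2%), against 4.27% of the tested genes. The windows of Mcm6 and Cdt1 shown above both hold such a site. Those of Tk1 and E2f1, replication genes also called between the periods, hold none of the motifs searched for and are not shown. The CCAAT box was in 16 of 19 mitotic genes (84.2%) and 8 of 13 replication genes (61.5%), against 42.3%. The canonical E-box CACGTG, the motif that the clock factors Clock and Bmal1 bind, was in the window of 0 mitotic and 0 replication genes, against 11.1% of the tested genes. Among the mitotic genes with a window, the CHR element was in 7 of the 9 that were lower in active males (77.8%) and in 8 of the 10 others (80.0%), so the motif did not separate them. These matches are letters in a window and were not tested for binding.

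Levels can be set against each other between genes only per length, and here they are mean normalized counts over all libraries per kb of annotated exon sequence. Replication genes held the upper end of this scale. Pcna, the sliding clamp of DNA polymerase, was at 475 per kb, Mcm6 at 188 and Mcm7 at 127, both subunits of the replicative helicase. The lowest were the kinetochore protein gene Cenpf at 2.83 per kb, the microtubule depolymerase gene Kif2c at 3.29 and the checkpoint kinase gene Bub1 at 4.07. The highest mitotic gene was Nusap1 at 44.4 per kb, which encodes a microtubule-binding protein of the spindle, followed by Kif23 at 38.3. The spread between the 6 libraries of a group was wider for mitotic genes, with a median coefficient of variation over genes of 34.2% in active males, 27.1% in inactive males, 28.5% in active females and 24.6% in inactive females. For replication genes it was 13.1% in active males, 12.7% in inactive males, 17.4% in active females and 14.4% in inactive females. Most mitotic genes had lower counts than most replication genes, and counting error is larger at low counts. The part of count level in this gap between the classes was not tested.

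**Figure D1:**
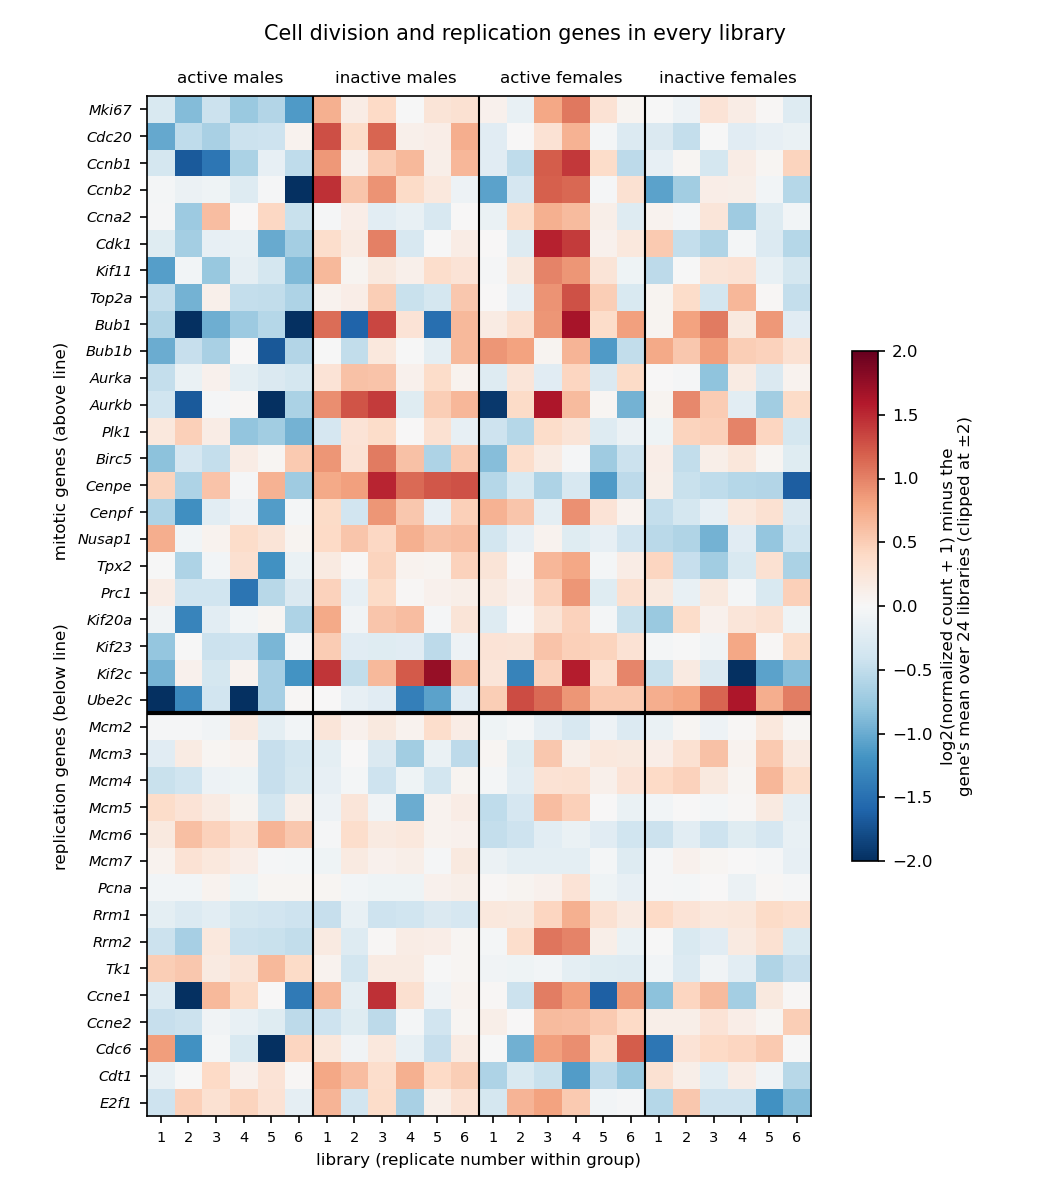
Levels of the 38 genes (rows) in the 24 libraries (columns, by group and replicate number), as log2 of the normalized count plus 1 minus the mean of the gene over all libraries, with the colour clipped at 2 in either direction. Most mitotic genes, above the line, are below their mean in the 6 active male libraries and above it in inactive males and in active female replicates 3 and 4, while most replication genes, below the line, stay close to their mean.

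In males, mitotic genes were lower in the active than in the inactive period. Of 23 mitotic genes 11 fell and 0 rose at an adjusted p under 0.05 (limma, Benjamini-Hochberg over all tested genes), where 6.95% of all tested genes fell and 8.43% rose. Their log2 folds, active over inactive males on log2 of the normalized count plus 1, were below 0 for 22 of 23, with a median of -0.76 against 0.01 over all tested genes. Of the 15 replication genes 2 rose and 0 fell, and their median log2 fold was -0.01. In bulk kidney RNA, fewer cells of a type and less RNA per cell cannot be told apart.

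Averaged over the 23 mitotic genes, the log2 level of a library relative to each gene's mean over all libraries lay between -0.66 and -0.26 in active males, against 0.05 to 0.60 in inactive males. It lay between -0.13 and 0.76 in active females, against -0.18 to 0.08 in inactive females. All 6 active male libraries were thus below every other library, and active females were drawn apart by replicates 3 and 4. By group mean, active males were the lowest of the 4 groups for 18 of the 23 mitotic genes and the highest for 0. For the 15 replication genes the same average lay between -0.19 and 0.15 in active males, against -0.09 to 0.10 in inactive males, and between -0.13 and 0.35 in active females, against -0.15 to 0.12 in inactive females, so those groups overlapped.

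**Figure D2:**
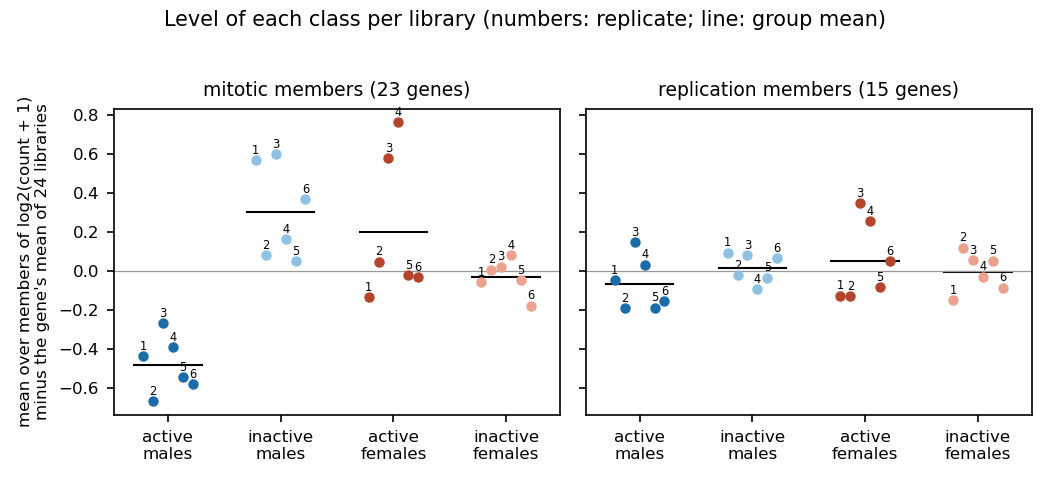
Mean over the genes of a class of log2 of the normalized count plus 1 minus the mean of each gene over 24 libraries (vertical axis, log2 units), 1 point per library with its replicate number, and a line at the group mean. The 6 active male libraries are below all others for the 23 mitotic genes, between -0.66 and -0.26, and active female replicates 3 and 4 are the highest of their group for both classes.

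The gene of the proliferation marker Ki-67, a protein that coats mitotic chromosomes, had the firmest difference. Mki67 (ENSMUSG00000031004) had 88.5 to 157 normalized counts in active males (median 123), against 192 to 319 in inactive males (median 237). All active males were below all inactive males, and the log2 fold was -0.98 ± 0.17 (SE, limma adjusted p = 2.17e-04).

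Cyclins B1 and B2 switch on the kinase Cdk1 at the start of mitosis. Ccnb1 had 7.25 to 22.7 normalized counts in active males (median 16.8), against 27.3 to 47.4 in inactive males (median 38.7). The groups did not overlap, and Ccnb1 fell by 1.28 ± 0.32 on the log2 scale (limma adjusted p = 0.0076). Ccnb2 had 8.85 to 37.5 in active males (median 35.5), against 35.8 to 107 in inactive males (median 53.4), and its log2 fold of -0.99 ± 0.36 did not pass (limma adjusted p = 0.0631). Its lowest value came from active male replicate 6 alone, since the next lowest active male had 32 normalized counts. Cdk1 itself had 22.7 to 42.0 in active males (median 34.3), against 37.4 to 95.4 in inactive males (median 52.3), with a log2 fold of -0.72 ± 0.28 (limma adjusted p = 0.083). Ccna2, the cyclin that also acts during replication, was the only mitotic gene with a log2 fold above 0, at 0.07 ± 0.20 (limma adjusted p = 0.847).

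Among the motors and microtubule proteins of the spindle, Kif11 and Kif2c fell. Kif11, the motor that pushes the spindle poles apart, had 26.4 to 55.6 normalized counts in active males (median 39.6), against 60.4 to 91.3 in inactive males (median 68.6). The groups did not overlap, and the log2 fold was -0.83 ± 0.21 (limma adjusted p = 0.00911). Kif2c, which takes microtubules apart at the kinetochore, had 4.42 to 12.1 in active males (median 7.78), against 7.79 to 40.4 in inactive males (median 23.1). Inactive male replicate 2 alone reached into the range of active males, and the log2 fold was -1.36 ± 0.45 (limma adjusted p = 0.0361). The other spindle genes did not pass, with log2 folds of -0.49 ± 0.24 for Tpx2, the activator of Aurora A, and -0.31 ± 0.13 for Nusap1 (limma adjusted p = 0.155 and 0.101). Top2a, the topoisomerase that untangles sister DNA, had a log2 fold of -0.55 ± 0.25 (limma adjusted p = 0.126).

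At the kinetochore, where chromosomes are held by the spindle, Cenpe and Cenpf fell. Cenpe, a motor that brings chromosomes to the spindle equator, had 49.8 to 133 normalized counts in active males (median 96.5), against 139.8 to 238 in inactive males (median 188). The groups did not overlap, though the active males themselves spread widely, and the log2 fold was -1.07 ± 0.25 (limma adjusted p = 0.00426). Cenpf had 16.9 to 39.8 in active males (median 30.6), against 31.2 to 75.9 in inactive males (median 55.2), with a log2 fold of -0.84 ± 0.25 (limma adjusted p = 0.0233). The checkpoint kinase genes Bub1 and Bub1b, which hold back separation until all chromosomes are attached, did not pass. Bub1 had 2.21 to 9.09 in active males, against 3.89 to 36.8 in inactive males, where replicates 2 and 5 stayed as low as the active males, and its log2 fold was -1.25 ± 0.46 (limma adjusted p = 0.0615). Bub1b had a log2 fold of -0.76 ± 0.29 (limma adjusted p = 0.0715).

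Of the mitotic kinases, Aurka and Aurkb fell and Plk1 did not pass. Aurka, the kinase of the spindle poles, had 38.4 to 57.9 normalized counts in active males (median 45.7), against 57.2 to 81.8 in inactive males (median 68.0). The ranges met only where active male replicate 3 exceeded the lowest inactive males, and the log2 fold was -0.55 ± 0.19 (limma adjusted p = 0.0433). Aurkb, the kinase of the chromosomal passenger complex, had 2.27 to 18.0 in active males (median 12.1), against 15.0 to 48.3 in inactive males (median 31.6). Its log2 fold of -1.63 ± 0.48 was the furthest from 0 of the 38 genes (limma adjusted p = 0.0202), at low counts. Birc5, survivin, of the same complex, had a log2 fold of -0.60 ± 0.27 (limma adjusted p = 0.124), and Plk1 one of -0.34 ± 0.28 (limma adjusted p = 0.435).

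Exit from mitosis is set off by Cdc20, which activates the anaphase-promoting complex, and by Ube2c, an enzyme that supplies it with ubiquitin. Cdc20 had 17.6 to 38.7 normalized counts in active males (median 26.2), against 39.5 to 91.3 in inactive males (median 54.5). The groups did not overlap, with the highest active male just below the lowest inactive male, and Cdc20 fell by 1.13 ± 0.23 on the log2 scale (limma adjusted p = 0.00146). Ube2c had 4.0 to 46.4 in active males, against 17.1 to 46.2 in inactive males, with a log2 fold of -0.79 ± 0.38 (limma adjusted p = 0.16). Of the genes of the central spindle, where the cell is pinched apart, Prc1 and Kif20a fell and Kif23 did not pass. Prc1, which bundles microtubules there, had 23.0 to 72.5 in active males (median 49.3), against 58.4 to 90.1 in inactive males (median 69.8), and its log2 fold was -0.64 ± 0.21 (limma adjusted p = 0.0393). Kif20a had 20.54 to 54.6 in active males (median 48.2), against 50.6 to 90.1 in inactive males (median 70.8), with a log2 fold of -0.72 ± 0.23 (limma adjusted p = 0.0338). Kif23 had a log2 fold of -0.29 ± 0.16 (limma adjusted p = 0.237).

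**Figure D3:**
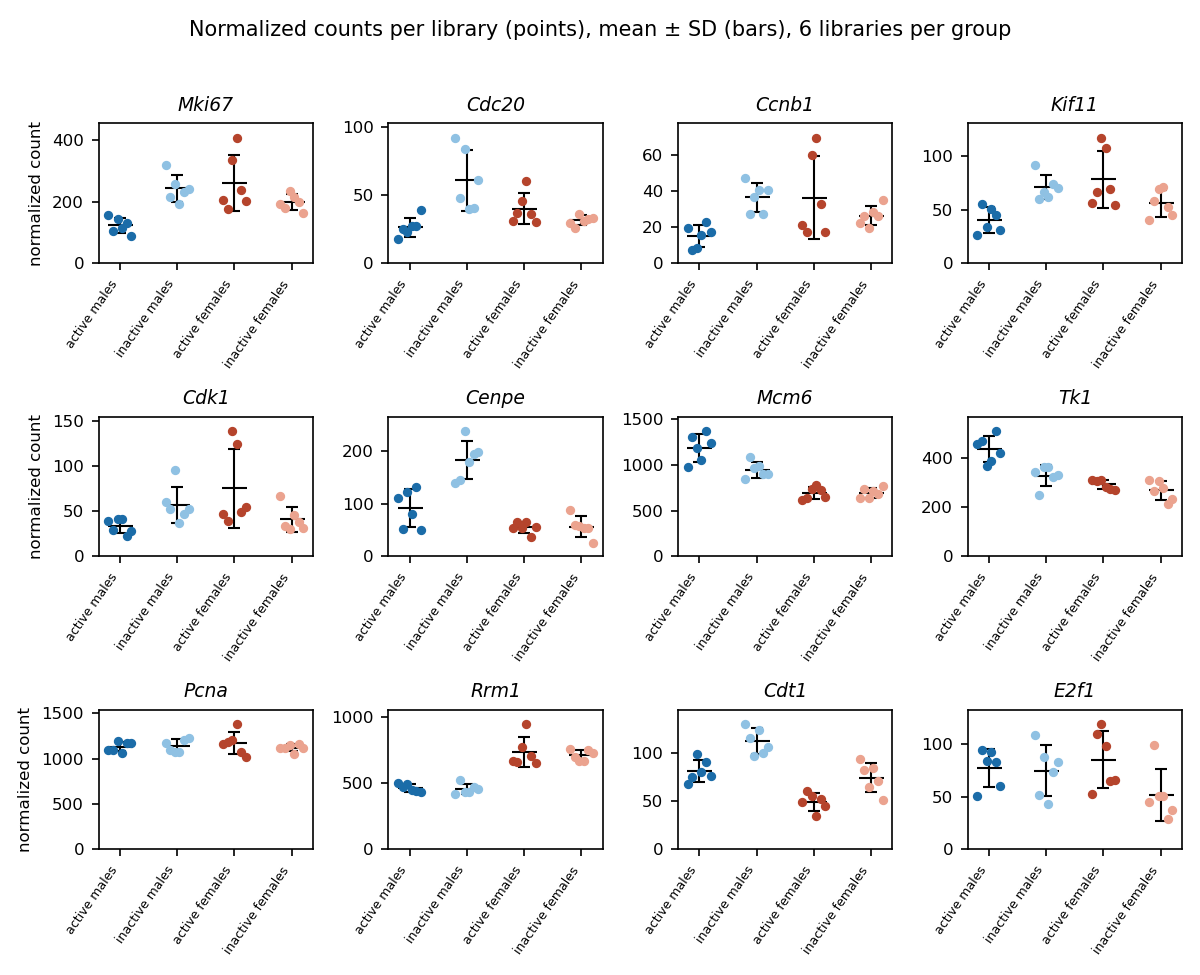
Normalized counts (vertical axes, each from 0) of 12 of the 38 genes in the 6 libraries of each group (points), with mean ± SD (bars). Active males are below inactive males without overlap for Mki67, Cdc20, Ccnb1, Kif11 and Cenpe, and above them without overlap for Tk1, while Pcna stays between 1017 and 1375 in all groups.

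Groups without overlap were seen for 5 of 23 mitotic genes, all lower in active males, where 2.01% of all tested genes were separated in that direction. These 5 genes, Mki67, Cdc20, Ccnb1, Kif11 and Cenpe, kept their adjusted p under 0.05 in every alternative fit and with any 1 library left out. The other 6 calls were lost when some single libraries were left out, and 5 of them also under other settings. Prc1 missed the threshold in edgeR (adjusted p = 0.064), Aurka, Kif2c, Prc1 and Kif20a missed it with no filter (limma adjusted p = 0.095, 0.0611, 0.0751 and 0.0639), and Cenpf, Aurka, Prc1 and Kif20a missed it with only the 2 groups compared (limma adjusted p = 0.0587, 0.0563, 0.0783 and 0.0639). Aurkb missed the threshold without active male replicate 2 or 5 (limma adjusted p = 0.0582 and 0.0615). Cenpf missed it without active male replicate 2 or 5 or inactive male replicate 3, 4 or 6, with limma adjusted p between 0.0521 and 0.0728. Aurka missed it without active male replicate 1, 2, 4, 5 or 6 or inactive male replicate 1, 2, 3 or 5, between 0.0509 and 0.0918. Kif2c missed it without active male replicate 1, 5 or 6 or inactive male replicate 1, 4, 5 or 6, between 0.0545 and 0.0963. Prc1 missed it without active male replicate 2, 4 or 5 or inactive male replicate 1, 3, 4, 5 or 6, between 0.0521 and 0.113. Kif20a missed it without active male replicate 2 or 6 or inactive male replicate 1, 3, 4 or 6, between 0.0524 and 0.117. The sign was kept in each of these fits.

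The replication genes did not share this difference between the periods in males. Tk1, thymidine kinase, which recycles a DNA building block, had 367 to 507 normalized counts in active males (median 437), against 249 to 362 in inactive males (median 336). All active males were above all inactive males, and Tk1 rose by 0.41 ± 0.10 on the log2 scale (limma adjusted p = 0.00819). Mcm6 had 973 to 1363 in active males (median 1208), against 842 to 1089.5 in inactive males (median 933). The groups overlapped at their edges, and Mcm6 rose by 0.32 ± 0.08 (limma adjusted p = 0.00781). Both calls held in every alternative fit and with any 1 library left out. Groups without overlap and higher in active males were seen for 1 of 15 replication genes, Tk1, where 2.28% of all tested genes were separated that way.

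The other subunits of the helicase moved little in males, with log2 folds between -0.21 ± 0.08 for Mcm2 and 0.22 ± 0.19 for Mcm5. Pcna averaged 1131 ± 52.2 normalized counts in active males and 1141 ± 69.9 in inactive males (SD, n = 6 each), with a log2 fold of -0.01 ± 0.06 (limma adjusted p = 0.915). Of the subunits of ribonucleotide reductase, which makes the building blocks of DNA, Rrm1 had a log2 fold of 0.04 ± 0.08 and Rrm2 one of -0.42 ± 0.18 (limma adjusted p = 0.798 and 0.111). Rrm2 had 114 to 209.6 in active males (median 132), against 149.9 to 203 in inactive males (median 192), and active male replicate 3 stood apart from the other 5, which had 134 or fewer. Cdt1, which loads the helicase, had 68.1 to 99.3 in active males (median 78.1), against 96.6 to 129 in inactive males (median 111). Its log2 fold of -0.46 ± 0.16 just missed the threshold (limma adjusted p = 0.0546), and edgeR and DESeq2 both called it lower. Its partner Cdc6, the cyclin E genes Ccne1 and Ccne2 and the transcription factor gene E2f1 had log2 folds between -0.83 ± 0.47 and 0.09 ± 0.26, none of which passed.

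In females, 0 of 23 mitotic genes passed the test between the active and the inactive period (limma, adjusted p under 0.05), where 15% of all tested genes passed in either direction. At an unadjusted p under 0.05, 5 mitotic genes were higher and 0 lower. The share of all tested genes at that looser threshold was not counted. edgeR called 2 higher, Cdk1 and Kif2c, and DESeq2 added Nusap1 to these, for 3. Their median log2 fold was 0.26 against 0.00 over all tested genes, with 17 of 23 above 0. Much of this rested on active female replicates 3 and 4, which were the highest 2 of the 6 active females for 15 of 23 mitotic genes and 7 of 15 replication genes, where they were so for 11.7% of all tested genes. Without these 2 libraries, a choice made after seeing the data, the median was 0.06. The same 2 libraries had the lowest summed counts of the 6 proximal tubule markers among active females, 168527 and 164674, where the other 4 had 206850 to 212986, and the part of this in the mitotic values was not tested.

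Cdk1 shows the shape of this difference. It had 39.0 to 139 normalized counts in active females (median 52.0), against 30.6 to 67.5 in inactive females (median 36). Active female replicates 3 and 4 had 139 and 125, and the other 4 active females were inside the range of inactive females. Its log2 fold was 0.74 ± 0.28 (limma adjusted p = 0.079). Groups without overlap were seen for 0 members of either class in females, where 7.83% of all tested genes were separated. Mki67 had 175 to 405 in active females (median 221.9), against 162 to 236 in inactive females (median 195), with replicates 3 and 4 at 334 and 405 and a log2 fold of 0.34 ± 0.17 (limma adjusted p = 0.189). The furthest from 0 was Kif2c, with 3.90 to 35.8 in active females (median 15.3), against 2.02 to 13.0 in inactive females (median 6.96), and a log2 fold of 1.13 ± 0.45 (limma adjusted p = 0.0882). Nusap1 came nearest to passing, at 0.37 ± 0.13 (limma adjusted p = 0.0524).

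**Figure D4:**
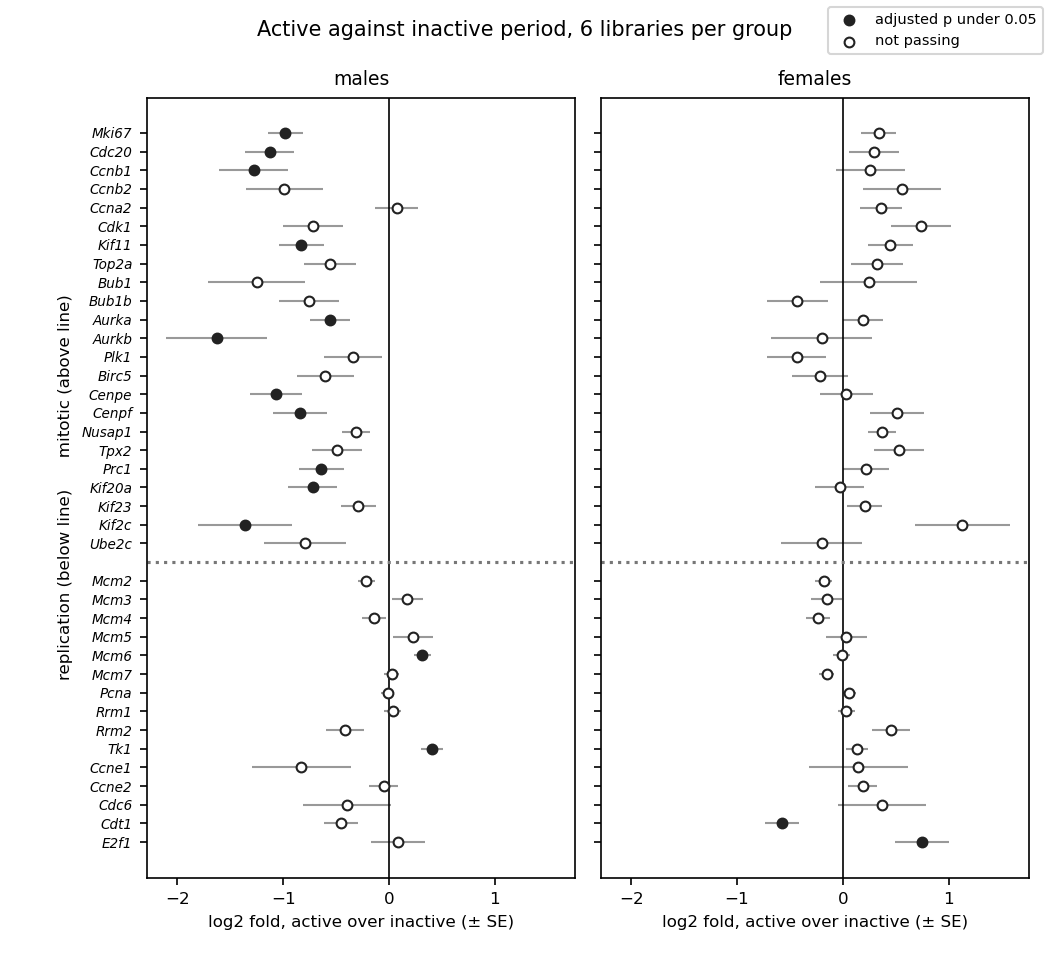
Log2 fold of each of the 38 genes, active over inactive period (horizontal axis, log2 of the normalized count plus 1), with bars of ± SE, in males (left) and females (right). Filled points have an adjusted p under 0.05. In males 22 of 23 mitotic genes are left of 0 and 11 are filled, while in females 17 of 23 are right of 0 and 0 are filled.

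Of the 15 replication genes 1 rose and 1 fell in females, where 7.97% of all tested genes rose and 6.98% fell. Cdt1 had 34.3 to 60.4 normalized counts in active females (median 50.6), against 50.9 to 93.3 in inactive females (median 76.5). Inactive female replicate 6, the lowest of its group, was the only one inside the active range, and Cdt1 fell by 0.58 ± 0.16 on the log2 scale (limma adjusted p = 0.0136). Without active female replicates 3 and 4 together this was -0.50 (limma adjusted p = 0.0612). E2f1, the transcription factor that switches on replication genes, had 52.8 to 118 in active females (median 81.7), against 28.6 to 98.7 in inactive females (median 47.7). The groups overlapped, since inactive female replicate 2 was far above the rest of its group, and the log2 fold was 0.75 ± 0.26 (limma adjusted p = 0.0463). This call was lost in edgeR (adjusted p = 0.0687) and in limma without active female replicate 2, 3 or 4, inactive female replicate 1, 3, 4, 5 or 6, active male replicate 3, 4 or 5 or inactive male replicate 3, 5 or 6 (adjusted p between 0.0503 and 0.128). In limma it was also lost with no filter, at equal totals, with only the 2 groups compared and with a plain variance prior (adjusted p between 0.058 and 0.0783). Without active female replicates 3 and 4 together the log2 fold of E2f1 was 0.55 (limma adjusted p = 0.242). Tk1 and Mcm6, the genes that rose in active males, had log2 folds of 0.13 ± 0.10 and -0.01 ± 0.08 in females (limma adjusted p = 0.453 and 0.962).

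The difference between the sexes in the effect of the period was tested as an interaction, the male log2 fold minus the female log2 fold, on the same 24 libraries. Of 23 mitotic genes 7 had a lower fold in males and 0 a higher one, where 2.71% of all tested genes passed, 1.3% lower and 1.41% higher. The median difference over the mitotic genes was -1.03 against 0.01 over all tested genes. Of 15 replication genes 0 passed in limma, with 1 higher and 1 lower at an unadjusted p under 0.05, a threshold at which all tested genes were not counted. edgeR called 0 of them and DESeq2 called 1, Rrm2.

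The difference was -1.32 ± 0.24 for Mki67 (limma adjusted p = 0.00465), where active males had lower values than inactive males and active females tended above inactive females. It was -1.42 ± 0.33 for Cdc20 (limma adjusted p = 0.0179) and -1.28 ± 0.30 for Kif11 (limma adjusted p = 0.0198). For Kif2c it was -2.49 ± 0.63, for Cenpf -1.35 ± 0.36, for Nusap1 -0.69 ± 0.19 and for Cdk1 -1.45 ± 0.40 (limma adjusted p = 0.0279, 0.036, 0.039 and 0.0422). Without active female replicates 3 and 4 together 1 of the 7 calls was left, Mki67 at -1.03 (limma adjusted p = 0.00892), while Cdc20, Kif11, Cenpf and Kif2c had adjusted p of 0.0599, 0.0749, 0.0529 and 0.0818, and Nusap1 and Cdk1 of 0.0925 and 0.141. The differences themselves were then -1.36 for Cenpf, -2.17 for Kif2c, -1.21 for Cdc20, -0.62 for Nusap1, -0.99 for Kif11 and -0.96 for Cdk1, so that of Cdk1 moved most. The median difference over the 23 genes was then -0.82.

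Leaving out any 1 library ended none of the interaction calls for Mki67, Cdc20 and Kif11. Kif2c missed the threshold without active female replicate 4 or 6 or inactive male replicate 5, with limma adjusted p between 0.052 and 0.0594. Cenpf missed it without active male replicate 2 or 5, inactive male replicate 3, 4 or 6, active female replicate 1 or 4 or inactive female replicate 1, 2, 3 or 6, between 0.0511 and 0.0726. Cdk1 missed it without active male replicate 2, 5 or 6, inactive male replicate 1, 3, 5 or 6, active female replicate 3, 4 or 6 or inactive female replicate 2, 3, 5 or 6, between 0.0507 and 0.0869. Nusap1 missed it without active male replicate 2, 3, 5 or 6, inactive male replicate 3, 4, 5 or 6, active female replicate 3, 4 or 5 or inactive female replicate 2, 3 or 5, between 0.0501 and 0.0769.

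Between the sexes most genes of the kidney differed, and the members are read against that background. In the active period 60.6% of all tested genes differed, 30.1% higher and 30.5% lower in males, and 15 of 23 mitotic genes did, 2 higher and 13 lower in males. In the inactive period 55.7% of all tested genes differed, 27.9% higher and 27.8% lower in males, and 7 of 23 mitotic genes did, 6 higher and 1 lower in males. The median log2 fold of the mitotic genes, males over females, was -0.81 in the active and 0.41 in the inactive period, against -0.05 and -0.04 over all tested genes. Without active female replicates 3 and 4 the active median was -0.49. Markers of other cell types also differed by sex. In males against females all 4 endothelial markers were lower in both periods, with median log2 folds of -0.69 in the active and -0.88 in the inactive period, and all 3 podocyte markers were, with -0.86 and -0.68. Of the 4 T cell markers 2 were lower in the active and 1 in the inactive period, and of the 6 macrophage markers 1 was higher and 1 lower in the active period and 4 lower in the inactive. Both thick ascending limb markers were lower in active males and both collecting duct markers higher, with median log2 folds of -0.59 and 0.40. In the inactive period 1 of the 2 markers of each was lower. Of the 6 proximal tubule markers 2 were higher and 4 lower in both periods. The part of these in the mitotic differences was not tested. These contrasts use the same libraries as those between the periods and add no separate evidence on the active males. Scaling all libraries to equal totals moved the median of all tested genes to -0.32 in both periods, and the mitotic genes called were then 0 higher and 19 lower in the active period and 4 higher and 3 lower in the inactive period. Most calls among all tested genes were then also lower in males, with the counts given in the last section.

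The 13 genes that were lower in active males than in active females did not include Aurka, Aurkb, Plk1 or Birc5. For Aurka and Aurkb this depended on the fit, since both were called lower at equal totals and Aurkb also in DESeq2. Ube2c stood apart by sex in both periods, with 4.0 to 46.4 normalized counts in active males (median 23.3), against 64.6 to 115 in active females (median 75.5). In the inactive period it had 17.1 to 46.2 in males (median 39.0), against 76.1 to 142 in females (median 87.0). Neither pair of groups overlapped, and the log2 folds were -2.11 ± 0.38 and -1.52 ± 0.38 (limma adjusted p = 3.23e-05 and 0.00148). Bub1 had 2.21 to 9.09 in active males (median 7.27), against 15.7 to 46.0 in active females (median 21.8), and fell by 1.91 ± 0.46 on the log2 scale (limma adjusted p = 6.71e-04). Kif23 had 155 to 289 in active males (median 217), against 347 to 432 in active females (median 376), and fell by 0.81 ± 0.16 (limma adjusted p = 1.08e-04). Mki67 was the other gene whose active groups did not overlap, with a log2 fold of -1.03 ± 0.17 (limma adjusted p = 4.86e-06). Non-overlapping groups lower in active males were thus seen for 4 of 23 mitotic genes, where 16.1% of all tested genes were so.

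Also lower in active males than in active females were Ccnb1, Cdk1, Kif11, Cenpf, Top2a, Bub1b, Prc1, Tpx2 and Cdc20, with log2 folds between -1.08 ± 0.32 and -0.57 ± 0.23. Top2a had 62.8 to 132 normalized counts in active males (median 87.1), against 99.2 to 298 in active females (median 148). Bub1b had 15.9 to 54.0 in active males (median 34.6), against 23.8 to 99.8 in active females (median 71.2). Tpx2 had 20.46 to 61.0 in active males (median 45.6), against 47.7 to 84.1 in active females (median 56.6). The groups overlapped for these 3 genes. Without active female replicates 3 and 4 together 9 mitotic genes were called, 2 higher and 7 lower in males. Cdc20 lost its call without active male replicate 1 or 3 or active female replicate 3 or 4 (limma adjusted p between 0.0604 and 0.107), and Tpx2 without active male replicate 2 or 5 or active female replicate 3 or 4 (between 0.0682 and 0.116).

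Cenpe and Nusap1 were higher in males in both periods, which went against most mitotic genes in the active period but not in the inactive. Neither was called in the active period at equal totals (limma adjusted p = 0.196 and 0.27). Cenpe had 49.8 to 133 normalized counts in active males (median 96.5), against 36.7 to 66.3 in active females (median 55.6), and 139.8 to 238 in inactive males (median 188), against 25.4 to 88.5 in inactive females (median 55.8). The inactive groups did not overlap, and its log2 folds were 0.64 ± 0.25 and 1.74 ± 0.25 (limma adjusted p = 0.0261 and 6.60e-07). The first of these calls was lost without active male replicate 1, 3 or 5 or active female replicate 5 (limma adjusted p between 0.0607 and 0.0795). Nusap1 had 164 to 284 in active males (median 192), against 130.3 to 179 in active females (median 149), and 225 to 281 in inactive males (median 255), against 88.5 to 147 in inactive females (median 115). Its log2 folds were 0.44 ± 0.13 and 1.13 ± 0.13 (limma adjusted p = 0.00433 and 1.56e-08).

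In the inactive period Cdc20, Kif2c, Aurka and Ccnb2 were also higher in males. Cdc20 had 39.5 to 91.3 normalized counts in inactive males (median 54.5), against 26.1 to 36.4 in inactive females (median 32), without overlap, and a log2 fold of 0.85 ± 0.23 (limma adjusted p = 0.00264). Its direction by sex was thus opposite in the active period, where active males were below active females. Kif2c had 7.79 to 40.4 in inactive males, against 2.02 to 13.0 in inactive females, with a log2 fold of 1.62 ± 0.45 (limma adjusted p = 0.00281). Aurka and Ccnb2 had log2 folds of 0.47 ± 0.19 and 0.93 ± 0.36 (limma adjusted p = 0.0333 and 0.032), and neither was called at equal totals (0.353 and 0.123). Aurka also lost its call without inactive male replicate 2, 3 or 5 or inactive female replicate 3 or 5 (0.0509 to 0.116), and Ccnb2 without inactive male replicate 1 or 3 or inactive female replicate 1, 2 or 6 (0.056 to 0.0901). Non-overlapping groups were seen for 4 of 23 mitotic genes, 3 higher and 1 lower in inactive males, where 18.6% of all tested genes were separated higher and 13.7% lower.

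**Figure D5:**
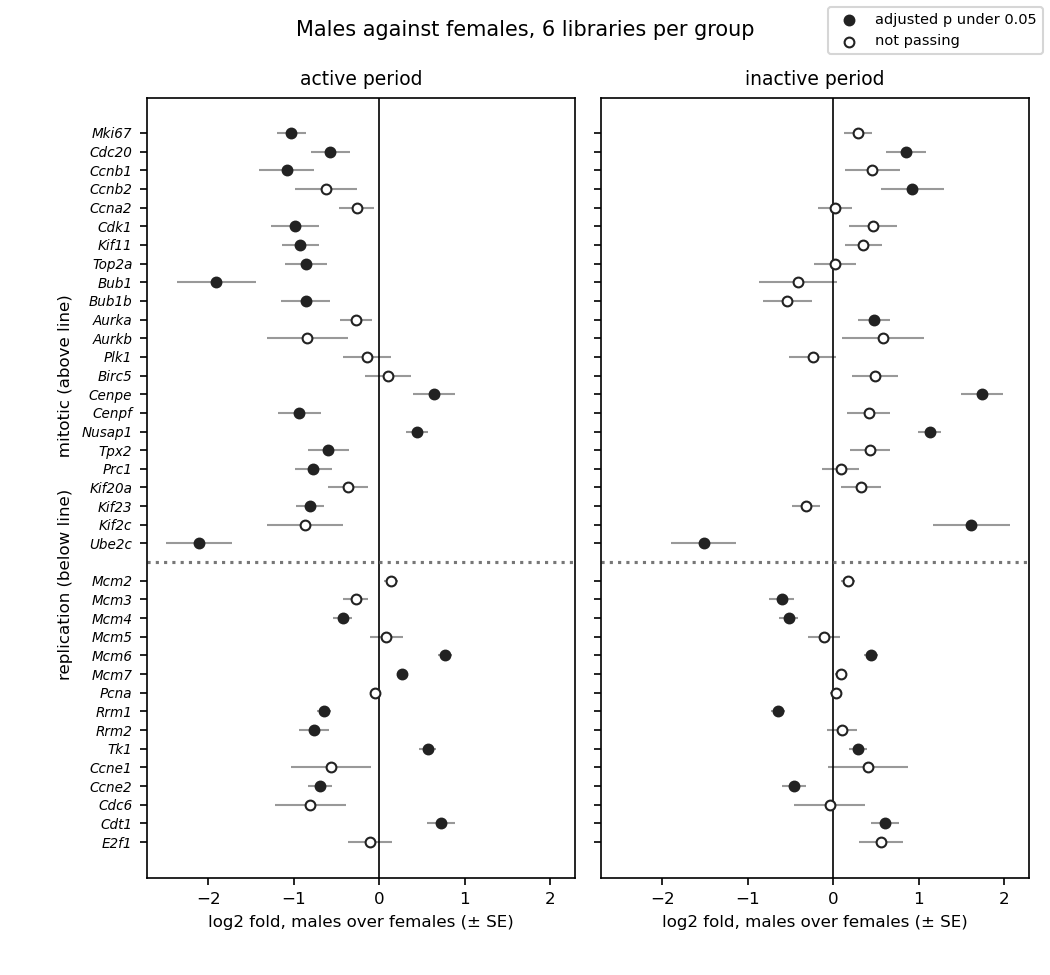
Log2 fold of each of the 38 genes, males over females (horizontal axis, log2 of the normalized count plus 1), with bars of ± SE, in the active period (left) and the inactive period (right). Filled points have an adjusted p under 0.05. Of the mitotic genes 2 are filled right of 0 and 13 left of it in the active period, and 6 right and 1 left in the inactive period, while Mcm6, Tk1 and Cdt1 are right of 0 and Mcm4, Rrm1 and Ccne2 left of it in both.

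By sex, of 15 replication genes 4 were higher and 4 lower in active males than in active females, and 3 were higher and 4 lower in inactive males than in inactive females, close to the shares of all tested genes given above. At equal totals these were 3 higher and 7 lower in the active and 0 higher and 6 lower in the inactive period. That scaling moved the median log2 fold of all tested genes to -0.32 in both periods. Most calls among all tested genes were then lower in males, with the counts given in the last section, so these counts are not a trait of the replication genes. Higher in males in both periods, on the deposited scale, were Mcm6, Tk1 and Cdt1. Mcm6 had 973 to 1363 normalized counts in active males, against 613 to 781 in active females, without overlap, and a log2 fold of 0.77 ± 0.08 (limma adjusted p = 1.27e-09). In the inactive period its log2 fold was 0.45 ± 0.08 (limma adjusted p = 2.13e-05), and 0.17 at equal totals (0.065). Cdt1 had log2 folds of 0.73 ± 0.16 in the active and 0.60 ± 0.16 in the inactive period (limma adjusted p = 3.03e-04 and 0.00223), the second falling to 0.33 at equal totals (0.0772). Tk1 had 0.56 ± 0.10 and 0.29 ± 0.10 (limma adjusted p = 2.43e-05 and 0.0181), and its inactive value was 0.01 at equal totals (0.928) and not called without inactive female replicate 5 (0.0649). Mcm7 had 543 to 683 in active males (median 599), against 469 to 546 in active females (median 488), and was higher in active males at 0.27 ± 0.07 (limma adjusted p = 0.00126), and -0.0036 at equal totals.

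Lower in males in both periods were Mcm4, Rrm1 and Ccne2. Rrm1, the large subunit of ribonucleotide reductase, had 435 to 505 normalized counts in active males (median 463), against 656 to 947 in active females (median 688). In the inactive period it had 417 to 523 in males (median 447), against 667 to 764 in females (median 714). Neither pair overlapped, and the log2 folds were -0.64 ± 0.08 and -0.65 ± 0.08 (limma adjusted p = 3.72e-08 and 4.52e-08). Ccne2, cyclin E2, had 79.6 to 109 in active males, against 115 to 178 in active females, and 79.3 to 117 in inactive males, against 118 to 162 in inactive females, with log2 folds of -0.69 ± 0.14 and -0.46 ± 0.14 (limma adjusted p = 7.34e-05 and 0.00583). Mcm4 had 208 to 269.96 in active males (median 219.8), against 247 to 352 in active females (median 326), and 213 to 297 in inactive males (median 262), against 294 to 453 in inactive females (median 372). Both pairs overlapped, and it had log2 folds of -0.43 ± 0.11 and -0.52 ± 0.11 (limma adjusted p = 0.00168 and 2.36e-04). Mcm3 had 87.6 to 143 in inactive males (median 121), against 149.6 to 215 in inactive females (median 169), and was lower in inactive males alone by the test, at -0.60 ± 0.14 (limma adjusted p = 7.84e-04) against -0.27 ± 0.14 in the active period (0.102), and Rrm2 in active males alone, at -0.76 ± 0.18 (5.14e-04) against 0.10 ± 0.18 in the inactive period (0.639). For neither gene did the interaction pass (limma adjusted p = 0.402 for Mcm3 and 0.057 for Rrm2), though that of Rrm2 was called in DESeq2 and with upper quartile scaling. Non-overlapping groups were seen for 5 of 15 replication genes in each period, 3 higher and 2 lower in active males and 2 higher and 3 lower in inactive males, where 20.2% and 16.1% of all tested genes were separated higher and lower in active males and 18.6% and 13.7% in inactive males. These counts are near the shares of all tested genes. Subunits of the same helicase ring, Mcm6 and Mcm4, thus differed by sex in opposite directions.

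Other genes of the same processes were counted from lists. Of 38 other mitotic genes tested, 15 fell and 1 rose in active males against inactive males, where 6.95% of all tested genes fell and 8.43% rose, with a median log2 fold of -0.33. Those with the smallest p were Cdc25b, a phosphatase that activates Cdk1, at -0.59 ± 0.11 (limma adjusted p = 7.59e-04), the condensin genes Smc4 at -0.25 ± 0.05 and Ncapg at -1.48 ± 0.35 (0.00285 and 0.00489), and the spindle protein gene Ckap2 at -1.27 ± 0.31 (0.00632). In females 2 rose and 4 fell, where 7.97% of all tested genes rose and 6.98% fell, with a median of 0.06. Hmgb2, a chromatin protein, was at -0.40 ± 0.08, the motor gene Kif22 at 0.82 ± 0.19, the securin gene Pttg1 at -0.23 ± 0.06 and Cdc25b at -0.41 ± 0.11 (limma adjusted p = 7.08e-04, 0.00361, 0.0061 and 0.0117). The interaction passed for 5 of these 38 genes, all with a lower fold in males, where 1.3% of all tested genes passed that way, and their median difference was -0.57.

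Of 35 other replication genes 1 rose and 3 fell in active males, with a median log2 fold of -0.08, and 0 rose and 4 fell in active females, with a median of -0.16. The shares that fell are near the 6.95% and 6.98% of all tested genes that fell in males and females. Mcm10, which starts unwinding at origins, fell in both sexes, by 0.56 ± 0.17 in males and by 1.02 ± 0.17 in females (limma adjusted p = 0.0226 and 6.67e-05). Gmnn, geminin, the inhibitor of Cdt1, also fell in both, by 0.30 ± 0.10 and 0.42 ± 0.10 (limma adjusted p = 0.0429 and 0.00438). In males Rfc1, of the clamp loader, was at -0.20 ± 0.05 and Timeless at 0.51 ± 0.14 (limma adjusted p = 0.00376 and 0.0126). In females Rfc5 was at -0.27 ± 0.09 and the chromatin assembly gene Chaf1a at -0.53 ± 0.18 (limma adjusted p = 0.0393 and 0.0403). The smallest adjusted p of the interaction among the 35 was 0.0611 for Rfc1 (limma).

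Of 17 tested regulators of the RB, E2F and DREAM group, 1 rose and 5 fell in active males and 2 rose and 1 fell in active females, where 8.43% of all tested genes rose and 6.95% fell in males and 7.97% rose and 6.98% fell in females. Rb1, the retinoblastoma protein that restrains E2F, fell by 0.30 ± 0.07 in active males, and its relatives Rbl2 and Rbl1 by 0.27 ± 0.07 and 0.38 ± 0.11 (limma adjusted p = 0.00237, 0.00877 and 0.0223). The 5 that fell also included genes outside the RB family, not all of them repressors. Those are not named because their p was larger. E2f6, a repressive E2F, rose in both sexes, by 0.27 ± 0.06 in males and 0.33 ± 0.06 in females (limma adjusted p = 0.00332 and 3.04e-04). Tfdp1, the partner of E2F proteins, rose in active females by 0.43 ± 0.07 (limma adjusted p = 2.80e-05). Lin52, of the MuvB core, was at -0.21 ± 0.07 and Tfdp2 at -0.21 ± 0.08 there (limma adjusted p = 0.0275 and 0.0681).

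Among 15 D-type cyclins, cyclin-dependent kinases, their phosphatases and inhibitors, 0 rose and 3 fell in active males and 2 rose and 3 fell in active females, against the same shares of all tested genes, 8.43% and 6.95% in males and 7.97% and 6.98% in females. Cdkn1a, the inhibitor p21, averaged 352 ± 63.2 normalized counts in active females and 181 ± 35.4 in inactive females and rose by 0.96 ± 0.17 without overlap (limma adjusted p = 1.87e-04). In males it had a log2 fold of 0.48 ± 0.17 (limma adjusted p = 0.0547). The inhibitor genes Cdkn2c and Cdkn1b and the kinase gene Cdk2 fell in active males by 0.43 ± 0.12, 0.19 ± 0.06 and 0.28 ± 0.09 (limma adjusted p = 0.0161, 0.025 and 0.0394). In active females Ccnd3 fell by 0.32 ± 0.07, Cdk4 by 0.18 ± 0.05, and Cdc25a, an activator of these kinases, rose by 0.44 ± 0.11 (limma adjusted p = 7.67e-04, 0.0158 and 0.00454). Of 16 genes of the anaphase-promoting complex and its regulators, 2 rose and 1 fell in active males and 0 rose and 1 fell in active females, near those shares. All log2 folds of these 16 genes between the periods lay between -0.27 and 0.35.

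By sex, 4 of the 38 other mitotic genes were higher and 19 lower in active males than in active females, and 7 higher and 4 lower in inactive males than in inactive females, which at equal totals were 1 higher and 27 lower and 2 higher and 13 lower. Of the 35 other replication genes 11 were higher and 5 lower in active males and 10 higher and 6 lower in inactive males, against 4 higher and 11 lower and 3 higher and 12 lower at equal totals. On the deposited scale the parts of these 35 that were higher in males are near the shares of all tested genes. The genes named next from these lists kept their call and direction at equal totals. Mcm10 was higher in males by 1.67 ± 0.17 in the active and 1.21 ± 0.17 in the inactive period (limma adjusted p = 7.39e-10 and 4.27e-07). Rb1 was lower in males by log2 folds of -0.70 ± 0.07 and -0.45 ± 0.07, and E2f7, another repressive E2F, by -2.69 ± 0.49 in the active period at low counts (limma adjusted p = 1.33e-10, 9.83e-07 and 2.47e-05). E2f5 and the chromatin gene Rbbp4 were higher in males in both periods, E2f5 by 0.54 ± 0.06 and 0.56 ± 0.06. Of the anaphase-promoting complex 9 of 16 genes were higher and 2 lower in active males than in active females, but 3 were higher and 7 lower at equal totals, and the smallest p belonged to Anapc7 at 0.77 ± 0.05 (limma adjusted p = 3.91e-13). Cdkn1a was lower in active males than in active females by a log2 fold of -1.0 ± 0.17 (limma adjusted p = 9.21e-06).

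The libraries held 31.04 to 39.3 M recovered reads, with a median of 34.1 M, so counting error is largest for the genes near 10 counts such as Kif2c, Bub1 and Ccne1. The sex labels could be checked with Ddx3y, at 1379 to 2361 normalized counts in males and at most 4.96 in females. All 5 clock genes looked at passed the test between the periods, 2 higher and 3 lower in the active period in each sex. That shows that the period groups differ, but a test of difference does not show which of them is the active one. Markers of other cell types moved with some contrasts. The summed counts of 5 red cell markers were 5524 to 7251 in active males, against 2306 to 5242 in inactive males, without overlap, and their log2 folds of 0.62 to 0.79 did not pass. Sums of the 6 macrophage, 4 T cell, 4 B and plasma cell and 4 endothelial markers overlapped between active and inactive males, and 2 of the 4 endothelial markers rose in active males. The 6 markers of injured or regenerating tubule summed to 22137 to 24805 in active males, against 24058 to 31144 in inactive males. In females they summed to 56627 to 65970 in the active period, against 56008 to 64379 in the inactive. The male sums were thus below the female sums in both periods, but the markers did not move together. In males against females 1 was higher and 2 lower in the active period, and 1 higher and 3 lower in the inactive. Between active and inactive males 1 rose and 1 fell. Active female replicates 3 and 4 had the highest endothelial sums of their group, 14971 and 15431, where the other 4 had at most 13325. They also had the highest sums of the 2 collecting duct markers, 4133 and 4474 where the other 4 had at most 4033, and of the injured or regenerating tubule markers. The part of any of these cell types in the results above was not tested.

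For some members reads could also come from a neighbouring gene, because the strand setting of the counting is unknown. Of the exon bases of Kif20a 29.3% lie opposite exons of Cdc23, which averaged 809 normalized counts, so that its values are uncertain. The share was 17.4% for Ccne2 with Ints8, 12.5% for Ccna2 with Exosc9 and 11.1% for Prc1 with Rccd1. Ube2c shares 22.8% with Tnnc2, which averaged 0.179 normalized counts. For the other members no single gene shared over 10%, though some partners were far more abundant. Cdc20 shares 2.84% with Elovl1 on the opposite strand, which averaged 2120 normalized counts. Mcm7 shares 7.25% with Ap4m1 and 1.45% with Cops6 on the opposite strand, which averaged 376 and 2743. Its other partners, Mir25 and Mir93, lie on the same strand and averaged 0.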

How the data were processed

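RNA of mouse kidney was sequenced after poly A selection, per the labels' protocols. The deposited signal, here called normalized counts, is gene counts that the authors divided by 1 size factor per library, as read from the values, which were whole multiples of 1 step within 0.05 in every library. Per the submitters' processing notes, Trim Galore 0.6.10, Subread 2.0.6, featureCounts and DESeq2 1.28.1 were used with GRCm39. Their roles, the annotation and the strand setting are not stated.

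Symbols came from a table of gene names that matched 52073 of 56748 identifiers, holding 99.2% of the normalized counts. Exon lengths and overlaps came from the mouse GENCODE annotation of GRCm38, and promoter windows from RefSeq on GRCm38.p6. Genes with a mean of at least 10 normalized counts were fitted as log2 of the normalized count plus 1 with limma 3.58.1 in R 4.3.3 (all 24 libraries, trended robust prior, 20 residual degrees of freedom). 5 contrasts were each adjusted by Benjamini and Hochberg, with calls under 0.05. edgeR 4.0.16 and DESeq2 1.42.0 ran on the recovered reads as alternatives, and the fit was tested on simulated counts.

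The members and lists were chosen with earlier results of these data known. Any of the 38 members could be named, and members called in at least 1 contrast are given with the values of the groups of a contrast that called them or, for some, of another contrast. Of each other list, up to 4 genes with the smallest p in each contrast between periods or sexes could be named. The values of 1 gene of these lists are not reported here. In the list of RB, E2F and DREAM regulators Lin54 was not matched, and 2 further genes of the lists by function were under the filter in each of the mitotic and replication lists.

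The groups share title numbers across sex, but deviations of equally numbered libraries correlated between -0.104 and 0.124 over 12 pairs, and the numbers were not treated as pairs.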

Additional observations from a re-analysis of the deposited data

Results flagged for a closer look

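In 10 of 152 groups of 6 libraries (38 genes in 4 groups), the highest or lowest library stood apart from the others by more than 0.625 of the whole range of the group. Chance gives this in about 1 in 20 groups. In active males these were Ccnb2 in replicate 6 at 8.85 normalized counts, Top2a in replicate 3 at 132 and Rrm2 in replicate 3 at 209.6. In inactive males they were Kif23 in replicate 1 at 415, Mcm5 in replicate 4 at 55.6, Rrm2 in replicate 2 at 149.9, Tk1 in replicate 2 at 249 and Ccne1 in replicate 3 at 39.1. Among females they were Bub1 in active replicate 4 at 46.0 and E2f1 in inactive replicate 2 at 98.7.

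The effect of the period differed between the sexes for 7 mitotic genes (limma interaction, adjusted p under 0.05). The male log2 fold minus the female log2 fold was -2.49 for Kif2c, -1.45 for Cdk1, -1.42 for Cdc20, -1.35 for Cenpf, -1.32 for Mki67, -1.28 for Kif11 and -0.69 for Nusap1. Without active female replicates 3 and 4 Mki67 kept its call at -1.03 (adjusted p = 0.00892), and the other 6 kept their direction with adjusted p between 0.0529 (Cenpf, -1.36) and 0.141 (Cdk1, -0.96) in limma.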

How the results depend on the processing

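The mitotic genes called between the periods in males numbered 11 and became 7 with no filter and 7 with only the 2 groups compared, and 6 to 12 with 1 library left out (6 without active male replicate 2 or 5, and 7 without inactive male replicate 1, 3, 4 or 6). The 2 replication genes called in males became 4 with a plain variance prior and 4 without active female replicates 3 and 4, a setting chosen after seeing the data, and 2 to 4 with 1 library left out (4 without active male replicate 3). All genes called in males numbered 2665, and 1756 with only the 2 groups compared.
In females the mitotic calls, 0, became 1 with upper quartile scaling, 2 in edgeR, 3 in DESeq2 and 1 with a plain variance prior, and 0 to 2 with 1 library left out. The 2 replication calls became 1 with no filter, at equal totals, in edgeR, with only the 2 groups compared and with a plain variance prior, 0 without active female replicates 3 and 4, and 1 to 3 with 1 library left out.
For the interaction, the 7 mitotic calls became 4 with no filter, 1 without active female replicates 3 and 4, and 3 to 8 with 1 library left out (3 without active female replicate 4, and 4 without active male replicate 2 or 5, inactive male replicate 3, 5 or 6, or inactive female replicate 2 or 3). The 0 replication calls became 1 with upper quartile scaling and 1 in DESeq2, and 0 to 1 with 1 library left out. Calls among all genes, 470, became 247 with no filter, 946 in DESeq2, 289 with a plain variance prior, 301 without active female replicates 3 and 4, and 276 to 780 with 1 library left out (276 without active female replicate 4, 290 and 293 without inactive female replicates 3 and 2, 293 without inactive male replicate 3, and 780 without active male replicate 1).
By sex in the active period the 15 mitotic calls became 9 without active female replicates 3 and 4. Equal totals moved the split of all genes, higher and lower in males, to 2635 and 8822 in the active period, where it was 5219 and 5290, and to 2051 and 9054 in the inactive period, where it was 4844 and 4818. Under that scaling Mcm7 in the active period reversed, to a log2 fold of -0.0036.
Of the alternative values of called members 1956 kept direction and side of the threshold, 159 lost the call and 1 reversed. A replicate block on the title number gave 11 and 2 mitotic and replication calls in males, 0 and 2 in females and 7 and 0 for the interaction, and changed none of these counts, with 1 of 12 pairs correlated over 0.1. The cause of each change was not tested. With a median of 34.1 M reads, depth limits the genes near the filter of 10 most.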
